A study of Mus musculus with 15 samples.

Results

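Hedgehog signalling genes were followed through pancreatic development in fluorescence-sorted mouse cells. The 9 genes were the ligands Shh and Ihh, the receptor Ptch1, the signal transducer Smo, the ligand-binding antagonist Hhip, the transcription factors Gli1, Gli2 and Gli3, and their binding partner Sufu. They were taken by name from the 19938 genes that the arrays measured with a probe set of their own, by a list drawn up with earlier results of these data known. Each had 1 such probe set, and all 9 passed the filter on low values used below.

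The cells came from 5 sorted groups of 3 arrays each, 15 in all. Males carrying the Sox9-EGFP or the Ngn3-EGFP transgene were mated with wild-type CD1 females, so each animal that gave GFP+ cells carried a transgene and had a CD1 mother. Sox9-GFP+ cells were the brightly fluorescent cells of Sox9-EGFP pancreas at embryonic days e10.5 and e15.5 and at postnatal day p23. Ngn3-GFP+ cells were the bright cells of Ngn3-EGFP pancreas at e15.5, and GFP- cells were the unlabelled cells of Sox9-EGFP pancreas at p23. Sox9 is a transcription factor of pancreatic progenitors and later of ducts, and Ngn3 (gene Neurog3) starts endocrine differentiation. Several animals were pooled per sort, so errors here measure the spread between pools and not between animals. How the transgenes were built, and any gate against other cell types, were not stated in the labels. GFP protein can outlast the transcript of the gene whose label it carries, and the Neurog3 transcript did not separate the e15.5 sorts: it had a mean of 11.83 in Ngn3-GFP+ and 11.87 in Sox9-GFP+ cells (adjusted p = 0.911), whereas Sox9 fell by 1.29 from Sox9-GFP+ to Ngn3-GFP+ cells (adjusted p = 0.00803 in limma).

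Levels are log2(intensity + 16) of the authors' array values, where a difference of 1 is a doubling for bright genes and less than the true change for dim ones. A level describes 1 probe set and is compared between samples, never between genes. Changes are given with the standard error from limma, n = 3 arrays per group, and a gene is said to have changed at a Benjamini-Hochberg adjusted p under 0.05 over all 16883 genes tested. A level of 6.83, the 30th percentile of all values, marks the low end of the arrays. These are bulk samples, in which fewer expressing cells and less RNA per cell cannot be told apart.

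Hedgehog ligands are secreted, lipid-modified proteins. Without ligand, Ptch1 keeps Smo inactive, Sufu holds the Gli proteins in the cytoplasm and Gli3 is processed to a repressor. With ligand bound to Ptch1, Smo enters the primary cilium and Gli2 and Gli3 are converted to activators. Ptch1, Hhip and Gli1 are themselves direct targets in many tissues, so their transcripts are commonly read as a sign of pathway activity, and Ptch1 and Hhip then limit the signal. In the mouse embryo Shh is kept out of the early pancreatic epithelium while the neighbouring gut epithelium expresses it, and excess ligand disturbs pancreas formation. Ducts are among the ciliated epithelia of the pancreas.

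The upstream sequences of the 4 genes with the largest changes in these samples, Smo, Hhip, Gli3 and Ptch1, are shown because Gli proteins bind near such starts. RefSeq's promoter table (GRCm38.p6) held 7 of the 9 genes, and each line gives the 250 bases before the start of transcription that the table uses, 5′ to 3′ on the strand of the gene. The capitals mark CCACCC or, on the other strand, GGGTGG, the core of the Gli motif. The positions are chr6:29735247-29735496 (+) for Smo, chr8:80058009-80058258 (-) for Hhip, chr13:15463473-15463722 (+) for Gli3 and chr13:63565736-63565985 (-) for Ptch1. The Ptch1 window lies inside the Ptch1 gene span and the Hhip window overlaps the edge of its own, because the table's start is not the outermost.
Smo: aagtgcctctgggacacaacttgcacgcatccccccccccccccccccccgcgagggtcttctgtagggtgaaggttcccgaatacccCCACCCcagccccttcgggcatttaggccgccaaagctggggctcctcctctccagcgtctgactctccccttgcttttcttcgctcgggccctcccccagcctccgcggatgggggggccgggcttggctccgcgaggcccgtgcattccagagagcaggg
Hhip: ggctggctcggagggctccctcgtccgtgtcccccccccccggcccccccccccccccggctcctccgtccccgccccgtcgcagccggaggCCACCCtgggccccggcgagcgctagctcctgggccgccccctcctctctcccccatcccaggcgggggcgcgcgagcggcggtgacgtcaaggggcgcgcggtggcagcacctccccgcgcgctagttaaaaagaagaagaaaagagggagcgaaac
Gli3: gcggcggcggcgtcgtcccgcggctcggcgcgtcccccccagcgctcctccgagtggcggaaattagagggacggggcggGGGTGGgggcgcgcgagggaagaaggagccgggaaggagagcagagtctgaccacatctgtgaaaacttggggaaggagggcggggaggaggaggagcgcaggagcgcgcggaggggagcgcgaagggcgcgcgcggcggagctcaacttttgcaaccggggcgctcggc
Ptch1: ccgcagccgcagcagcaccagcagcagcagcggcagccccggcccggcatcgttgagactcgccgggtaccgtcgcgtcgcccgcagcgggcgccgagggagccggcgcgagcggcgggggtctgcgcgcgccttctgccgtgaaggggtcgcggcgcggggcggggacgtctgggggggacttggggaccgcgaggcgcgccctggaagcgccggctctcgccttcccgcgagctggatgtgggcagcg
The core begins at -162 in Smo, -158 in Hhip and -170 in Gli3, counted from the start of transcription, and is not in this window of Ptch1. On either strand the core was found in 28.1% of all 32851 promoters of this length, so a match is common. The longer Gli consensus GACCACCCA, which contains the core, was in 0.225% of all promoters and in 0 of the 7. In CpG dinucleotides the windows differed: Ptch1 held 41, Gli3 34, Hhip 28 and Smo 15, where the median promoter held 6. This is not particular to the 4 genes shown, since Ihh held 24, Gli2 22 and Sufu 8.

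Beside the calls of the 9 genes stands the share of all genes called in the same comparison. In Sox9-GFP+ cells, 6 of the 9 changed between e10.5 and e15.5, 1 higher and 5 lower, when 28.2% of all genes did, 12.2% higher and 16% lower. Between e15.5 and p23 there were 4 higher (44.4%) and 2 lower (22.2%), against 57.5% of all genes, 30.7% higher and 26.8% lower. The total for the 9 genes, 66.7%, is close to that background. Between e10.5 and p23 there were 4 (44.4%), all lower, against 41% of all genes, 17.7% higher and 23.3% lower. Here too the total for the 9 genes is close to the background. In Ngn3-GFP+ against e15.5 Sox9-GFP+ cells, 4 were higher and 3 lower, against 41.7% of all genes, 23.3% higher and 18.4% lower. Sox9-GFP+ against GFP- cells at p23 gave 2 higher (22.2%) and 0 lower, against 36% of all genes, 21.5% higher and 14.5% lower. The share of higher genes is thus close to the background.

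Counted by arrays that do not overlap between groups, the 9 genes gave 8, 7, 5, 8 and 2 in the order of these comparisons, where 57.3%, 72.7%, 50.9%, 56.2% and 47.3% of all genes did. The 3 Sox9-GFP+ arrays of e15.5 enter 3 of the comparisons, those with e10.5, with p23 and with Ngn3-GFP+ cells, so a low or high value there appears in each.

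**Figure D1:**
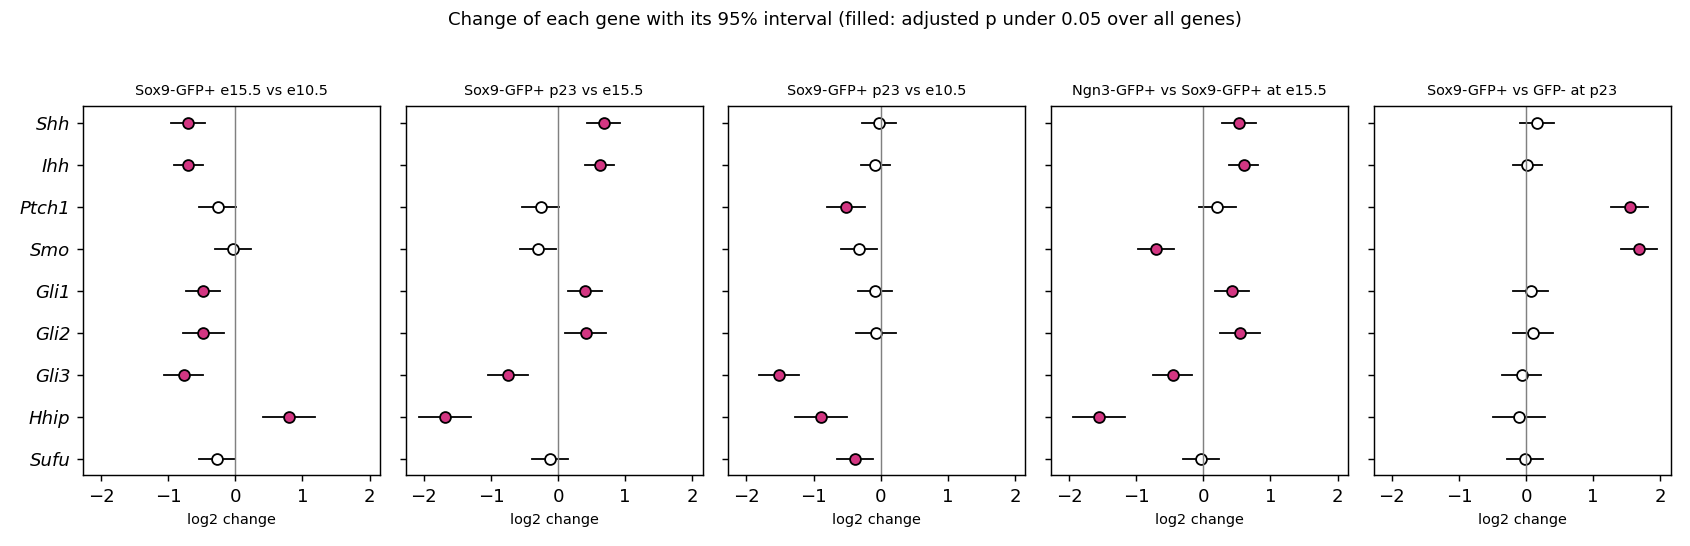
Change of each Hedgehog gene in the 5 comparisons, in log2 units on the horizontal axis, as the first group minus the second of each panel title. Points are limma estimates, bars their 95% intervals and filled points the calls. Shh, Ihh, Gli1 and Gli2 are at about -0.70 to -0.48 in the panel of e15.5 against e10.5 and above 0 in the other panels with e15.5 arrays, and Ptch1 and Smo stand at 1.54 and 1.68 in the panel of the p23 sorts.

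The clearest difference lay between the p23 sorts. Ptch1 and Smo were about 3 times as high in Sox9-GFP+ cells as in GFP- cells, with no overlap between the arrays, and the ligands, Hhip, the Gli factors and Sufu gave no call. Ptch1 (chr13:63508328-63573460), the 12-pass receptor of the ligands, had levels of 9.93, 10.04 and 10.17 in the Sox9-GFP+ arrays and 8.59, 8.23 and 8.69 in the GFP- arrays. The difference was 1.54 ± 0.13, or 2.91-fold (adjusted p = 3.1e-07). Smo (chr6:29735497-29761366), the 7-pass protein that Ptch1 holds in check, had levels of 8.49, 8.68 and 8.98 against 7.09, 7.002 and 7.01, a difference of 1.68 ± 0.12 or 3.21-fold (adjusted p = 8.55e-08). The GFP- values of Smo lay just above the low end of the arrays, so its fold is the more compressed of the pair.

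What the 2 p23 populations contained bears on this comparison. The GFP- cells, which the study's design presents as acinar and endocrine cells, had the pan-leukocyte gene Ptprc at 14.28, 14.41 and 14.64, against 8.12, 10.64 and 10.09 in the Sox9-GFP+ arrays. Of 9 leukocyte markers tested 8 were lower in Sox9-GFP+ cells, as were 6 of 8 endothelial and 8 of 14 mesenchymal ones. The mean leukocyte level per array ranged from 10.68 to 11.12 in GFP- cells and from 7.42 to 8.22 in Sox9-GFP+ cells. The mean ductal level ranged from 8.28 to 8.52 and from 10.74 to 10.82. Acinar markers were high in both sorts, with a mean level of 12.88 to 13.10 in GFP- and 12.33 to 12.51 in Sox9-GFP+ cells. Of 5 acinar markers tested 1 was lower in Sox9-GFP+ cells and 4 were not called. The mean endocrine level was 7.57 to 8.03 in GFP- and 7.31 to 8.07 in Sox9-GFP+ cells, where 1 of 7 markers tested was higher and 2 were lower. The mean endothelial level ranged from 8.495 to 8.90 in GFP- cells and from 7.30 to 7.60 in Sox9-GFP+ cells, where Tek lay below 6.83 on 1 array. The part of the other cell types in the Ptch1 and Smo differences was not tested. Without the 2 Sox9-GFP+ arrays with Ptprc above 9, replicate 1 stood alone against the 3 GFP- arrays, with differences of 1.43 for Ptch1 and 1.46 for Smo. The spread of that fit (adjusted p = 0.000161 and 2.02e-05) comes from the other groups, since a lone array has none of its own and is assumed to vary as they do.

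The other genes had small differences between the p23 sorts, with intervals that bound them. Shh differed by 0.16 (95% interval -0.09 to 0.41) and Ihh by 0.02 (-0.19 to 0.24). Gli1 differed by 0.07 (-0.19 to 0.32), Gli2 by 0.11 (-0.19 to 0.41) and Gli3 by -0.07 (-0.36 to 0.23). For Sufu the difference was -0.02 (-0.29 to 0.25), and for Hhip -0.10 (-0.49 to 0.28) at levels below 6.83 on every array of both sorts. A missing call does not show that these genes were alike.

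**Figure D2:**
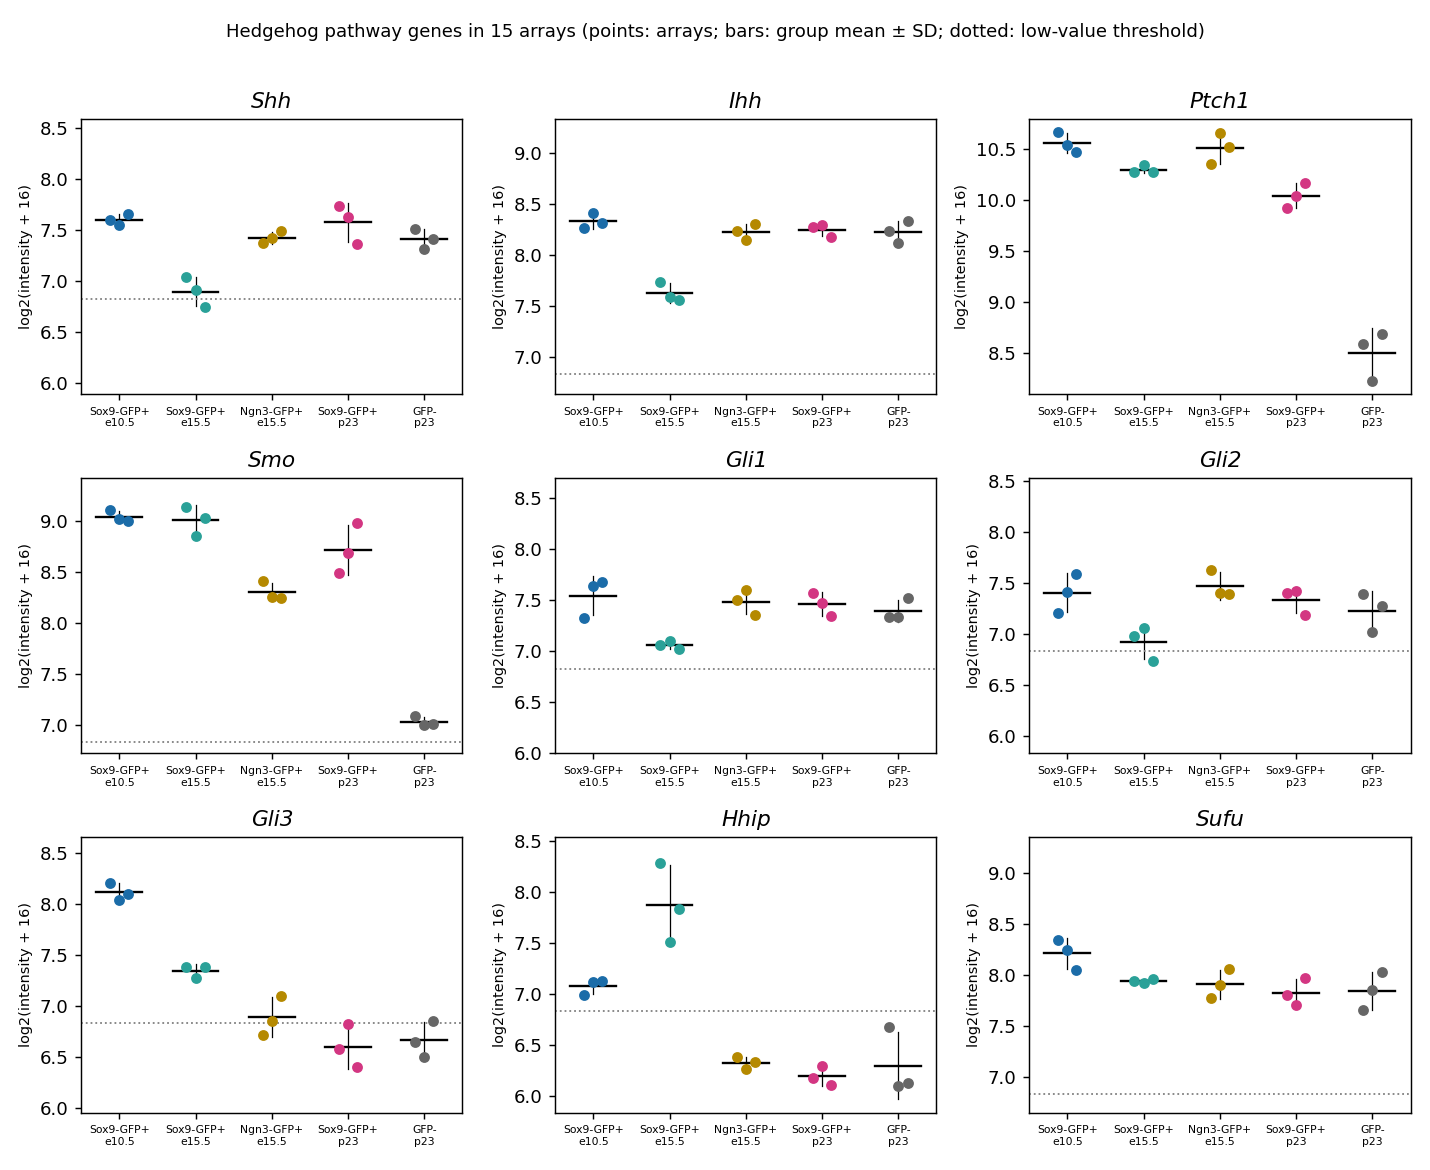
Level of each Hedgehog gene as log2(intensity + 16) on the vertical axis in the 5 sorted groups. Points are arrays, horizontal bars the mean and vertical bars the SD of 3 arrays, and the dotted line the level 6.83; the vertical axes start at different values. Ptch1 and Smo are lowest in GFP- cells, Hhip is highest in e15.5 Sox9-GFP+ cells, and Gli3 is highest at e10.5.

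Across the embryonic groups Ptch1 moved little. Its levels were 10.67, 10.54 and 10.47 in e10.5 Sox9-GFP+ cells, 10.28, 10.34 and 10.28 at e15.5, and 10.35, 10.65 and 10.52 in Ngn3-GFP+ cells. The order of the group means was e10.5, Ngn3-GFP+, e15.5, p23 and GFP-, and only the e10.5 and Ngn3-GFP+ arrays overlapped among neighbours. The change from e10.5 to e15.5 was -0.26 ± 0.13 (adjusted p = 0.138), that from e15.5 to p23 was -0.26 ± 0.13 (adjusted p = 0.103), and over the whole span Ptch1 fell by 0.52 ± 0.13 (adjusted p = 0.00515). Left without the 3 arrays with embryonic globin (Hbb-y above 9), which are 2 of e10.5 and 1 of e15.5, the whole-span change was -0.43 with adjusted p = 0.169, with e10.5 then a lone array that is assumed to vary like the other groups. Ngn3-GFP+ cells differed from Sox9-GFP+ cells by 0.21 ± 0.13 (95% interval -0.07 to 0.49, adjusted p = 0.206). Under quantile normalization, which forces all arrays to 1 distribution, the e10.5 to e15.5 fall (-0.36, adjusted p = 0.0398) and the Ngn3-GFP+ rise (0.34, adjusted p = 0.0409) were called. Median centring took the same changes the other way, to -0.09 (adjusted p = 0.662) and 0.02 (adjusted p = 0.92), and called the e15.5 to p23 fall (-0.41, adjusted p = 0.036).

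Smo separated the e15.5 sorts. It stood at 9.14, 8.85 and 9.03 in Sox9-GFP+ cells and at 8.41, 8.26 and 8.25 in Ngn3-GFP+ cells, with no overlap. The difference was -0.70 ± 0.12 (adjusted p = 0.00167), and it was called under every alternative run for this comparison, between -0.89 and -0.63. Of 5 acinar markers tested 4 were lower and 0 higher in Ngn3-GFP+ cells. Of 7 endocrine ones 5 were higher and 0 lower, where 23.3% of all genes were higher and 18.4% lower. The part of these cell types in the Smo difference was not tested. At e10.5 the Smo arrays read 9.10, 9.02 and 8.997, within the range of e15.5. The change between these stages was -0.03 ± 0.12 (95% interval -0.30 to 0.24). From e15.5 to p23 it was -0.29 ± 0.12 (adjusted p = 0.0564) and from e10.5 to p23 -0.33 ± 0.12 (adjusted p = 0.0504), just short of a call. Mean Smo levels at e10.5, e15.5 and p23 were 9.01, 8.91 and 8.74 under quantile normalization, and 8.99, 9.12 and 8.67 under median centring. The fall from e15.5 to p23 was thus smaller under the first and larger under the second. In p23 the replicate with the lowest Ptprc also had the lowest Smo, 8.49. That array alone gave changes of -0.52 and -0.55, where the spread behind the adjusted p of 0.0151 and 0.0143 is that of the other groups.

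Hhip, the cell-surface decoy that binds the ligands, was measured above the low end of the arrays only in Sox9-GFP+ cells of the embryo. Its levels (chr8:79965850-80058060) were 6.99, 7.12 and 7.12 at e10.5 and 8.28, 7.51 and 7.83 at e15.5. The Ngn3-GFP+ arrays read 6.38, 6.27 and 6.34, p23 Sox9-GFP+ cells had 6.18, 6.29 and 6.11, and GFP- cells had 6.68, 6.09 and 6.12. The last 3 groups all lay below 6.83 and overlapped with each other, so Hhip entered the test through the groups where it is high, and the calls against the low groups say only how far above them it stood.

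Hhip rose from e10.5 to e15.5 by 0.80 ± 0.18, or 1.74-fold (adjusted p = 0.00718), the only rise among the 9 genes in that comparison. The e10.5 values lay little above the 30th percentiles of their own arrays (6.72, 6.92 and 7.04), so this fold may be understated. Without the 3 Hbb-y arrays, which included the highest Hhip value of e15.5, the change was 0.55 (adjusted p = 0.129). That comparison sets 2 arrays of e15.5 against a lone one of e10.5, assumed to vary like the other groups. From e15.5 to p23 it fell by 1.68 ± 0.18 on the log2 scale (adjusted p = 5.9e-06). Ngn3-GFP+ cells differed from Sox9-GFP+ cells of the same day by -1.55 ± 0.18 (adjusted p = 0.000137). Both of these falls were called in every alternative in which Hhip was tested, with ranges of -1.92 to -1.23 and of -1.75 to -1.14. Some mesenchymal cells also express Hhip in mouse. The mean level of the mesenchymal markers was 7.36 to 7.50 at e10.5, 7.85 to 8.30 in Sox9-GFP+ and 7.79 to 8.47 in Ngn3-GFP+ cells at e15.5. At p23 it was 8.12 to 8.30 in Sox9-GFP+ cells and highest, 8.93 to 9.19, in GFP- cells. The part of mesenchymal cells in the Hhip values was not tested.

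Gli3 (chr13:15463723-15730026), the main repressor among the Gli factors, decreased with stage. The arrays read 8.21, 8.04 and 8.09 at e10.5, 7.38, 7.27 and 7.38 at e15.5, and 6.58, 6.82 and 6.40 at p23 in Sox9-GFP+ cells. Each stage lay entirely below the one before. Gli3 fell by 0.77 ± 0.14 from e10.5 to e15.5 (adjusted p = 0.00149) and by 0.75 ± 0.14 from e15.5 to p23 (adjusted p = 0.00056). Over the whole span the change was -1.52 ± 0.14 (adjusted p = 6.56e-07). All p23 Sox9-GFP+ values lay below 6.83, and the GFP- arrays read 6.64, 6.50 and 6.85, so the changes that end at p23 are against values at the low end and may be understated. In Sox9-GFP+ cells the mean acinar level was 6.98 to 7.20 at e10.5, 10.83 to 11.55 at e15.5 and 12.33 to 12.51 at p23. The mean endocrine level was 10.44 to 10.74, 11.36 to 11.97 and 7.31 to 8.07. The part of these cell types in the Gli3 changes was not tested.

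In Ngn3-GFP+ cells Gli3 stood at 6.72, 6.85 and 7.10, below all 3 Sox9-GFP+ arrays of the same day. The change was -0.46 ± 0.14 (adjusted p = 0.0182). This is a borderline call: it was lost without Sox9-GFP+ replicate 1 (-0.44, adjusted p = 0.0509), without Sox9-GFP+ replicate 3 (-0.44, adjusted p = 0.0617) and without Ngn3-GFP+ replicate 1 (-0.37, adjusted p = 0.0629). It was also lost without the Hbb-y arrays (-0.44, adjusted p = 0.0711). In none of the alternatives did its sign change.

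The ligands shared a single pattern: lowest in e15.5 Sox9-GFP+ cells and nearly level elsewhere. Shh (chr5:28456840-28467101) stood at 7.04, 6.91 and 6.75 in e15.5 Sox9-GFP+ cells, 1 of the arrays being below 6.83. In the other groups it ranged from 7.31 to 7.74, with 7.60, 7.56 and 7.66 at e10.5, 7.37, 7.42 and 7.49 in Ngn3-GFP+ cells, 7.74, 7.64 and 7.36 at p23 and 7.51, 7.31 and 7.42 in GFP- cells. Those 4 groups overlapped in the order of their means, and all lay above the e15.5 Sox9-GFP+ arrays. Shh fell by 0.70 ± 0.12 from e10.5 to e15.5 (adjusted p = 0.000951) and was 0.68 ± 0.12 higher again at p23 (adjusted p = 0.000373). Ngn3-GFP+ cells were 0.53 ± 0.12 above Sox9-GFP+ cells (adjusted p = 0.00524), a call lost under quantile normalization (0.27, adjusted p = 0.0649).

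Ihh (chr1:74945315-74951672), the Indian hedgehog ligand, behaved likewise at a higher range of its own probe set. It read 7.74, 7.59 and 7.56 in e15.5 Sox9-GFP+ cells, below every other array. At e10.5 it read 8.27, 8.41 and 8.32, in Ngn3-GFP+ cells 8.23, 8.15 and 8.31, at p23 8.28, 8.30 and 8.17, and in GFP- cells 8.24, 8.12 and 8.33. These 4 groups overlapped. Ihh fell by 0.70 ± 0.10 from e10.5 to e15.5 (adjusted p = 0.000285), rose by 0.62 ± 0.10 from e15.5 to p23 (adjusted p = 0.000229) and was 0.60 ± 0.10 higher in Ngn3-GFP+ than in e15.5 Sox9-GFP+ cells (adjusted p = 0.0012). All 3 were still called under quantile normalization, at -0.56, 0.52 and 0.45. Between e10.5 and p23 neither ligand was called, with changes of -0.03 (95% interval -0.28 to 0.22) for Shh and -0.08 (-0.30 to 0.13) for Ihh. The mean level of 8 gut epithelium markers was 7.51 to 7.72 in e15.5 Sox9-GFP+ and 8.14 to 8.70 in Ngn3-GFP+ cells. It was 7.49 to 7.69 at e10.5, and at p23 it was 8.22 to 8.84 in Sox9-GFP+ and 8.37 to 8.49 in GFP- cells. In Ngn3-GFP+ against e15.5 Sox9-GFP+ cells 6 were higher and 0 lower. In Sox9-GFP+ cells 2 rose and 3 fell by e15.5, and 4 then rose and 1 fell by p23. The part of gut cells in the Shh and Ihh values was not tested.

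Gli1 (chr10:127329882-127341579), an activator whose transcript often follows pathway activity, had the same shape as the ligands. It read 7.06, 7.10 and 7.02 in e15.5 Sox9-GFP+ cells, against 7.32, 7.64 and 7.68 at e10.5 and 7.50, 7.60 and 7.35 in Ngn3-GFP+ cells. At p23 the levels were 7.58, 7.48 and 7.34, and in GFP- cells 7.34, 7.34 and 7.52. All of these lay above the Sox9-GFP+ arrays of e15.5 and overlapped among themselves. The change was -0.48 ± 0.12 from e10.5 to e15.5 (adjusted p = 0.0109), 0.40 ± 0.12 from e15.5 to p23 (adjusted p = 0.0108) and 0.42 ± 0.12 between the e15.5 sorts (adjusted p = 0.014).

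Gli2 (chr1:118834061-119054405), the main activator that Smo acts on, read 6.98, 7.06 and 6.73 in e15.5 Sox9-GFP+ cells and 7.21, 7.41 and 7.59 at e10.5. Ngn3-GFP+ cells had 7.62, 7.39 and 7.38, p23 Sox9-GFP+ cells had 7.40, 7.41 and 7.19, and GFP- cells had 7.39, 7.02 and 7.27. The lowest GFP- array fell within the e15.5 Sox9-GFP+ range, the other groups did not. The changes were -0.48 ± 0.14 from e10.5 to e15.5 (adjusted p = 0.0243), 0.41 ± 0.14 from e15.5 to p23 (adjusted p = 0.0227) and 0.54 ± 0.14 between the e15.5 sorts (adjusted p = 0.00979).

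Most of the Gli1 and Gli2 calls depended on how the arrays were scaled. Under quantile normalization from e10.5 to e15.5 Gli1 changed by -0.26 (adjusted p = 0.071) and Gli2 by -0.25 (adjusted p = 0.0966). From e15.5 to p23 the values were 0.18 (adjusted p = 0.136) and 0.17 (adjusted p = 0.158), and for Gli1 between the e15.5 sorts 0.17 (adjusted p = 0.178). Dropping 1 array also ended calls from e10.5 to e15.5: without e10.5 replicate 2 Gli1 had adjusted p = 0.0519 and Gli2 0.072, without e10.5 replicate 3 they had adjusted p = 0.0553 and 0.114, and without e15.5 replicate 3 Gli2 had adjusted p = 0.117. From e15.5 to p23 Gli2 was lost without e15.5 replicate 3 and without p23 replicate 1 or 2 (adjusted p = 0.107, 0.0704 and 0.0748). Between the e15.5 sorts Gli1 and Gli2 were lost without Sox9-GFP+ replicate 3 (adjusted p = 0.053 and 0.0518).

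The dim end of the arrays moved with these 4 genes. The 30th percentile of all values of an array was 6.59 to 6.70 in e15.5 Sox9-GFP+ cells. It was 6.72 to 7.04 at e10.5, 6.85 to 7.002 in Ngn3-GFP+ cells, 6.77 to 6.99 at p23 and 6.74 to 6.85 in GFP- cells. Olfactory receptor genes, which serve the nose and were chosen after their values were seen, gave the same picture. The median of 1015 of them was 5.96 to 6.07 in e15.5 Sox9-GFP+ cells and between 6.11 and 6.45 on all other arrays. Of the 327 that passed the filter, 0 were higher and 125 lower from e10.5 to e15.5, 240 higher and 0 lower from e15.5 to p23, and 243 higher and 0 lower in Ngn3-GFP+ cells. Their median changes were -0.40, 0.47 and 0.50, close to those of Gli1 and Gli2 and smaller than those of Ihh. Between the e15.5 sorts the median was also close to the change of Shh (0.53). The filter needs 3 arrays above 6.83, so it favours genes that are high outside a dim group. Over all 1015 genes the median changes were smaller, at -0.30, 0.35 and 0.37. The part of this shift in the values of Shh, Ihh, Gli1 and Gli2 was not tested.

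**Figure D3:**
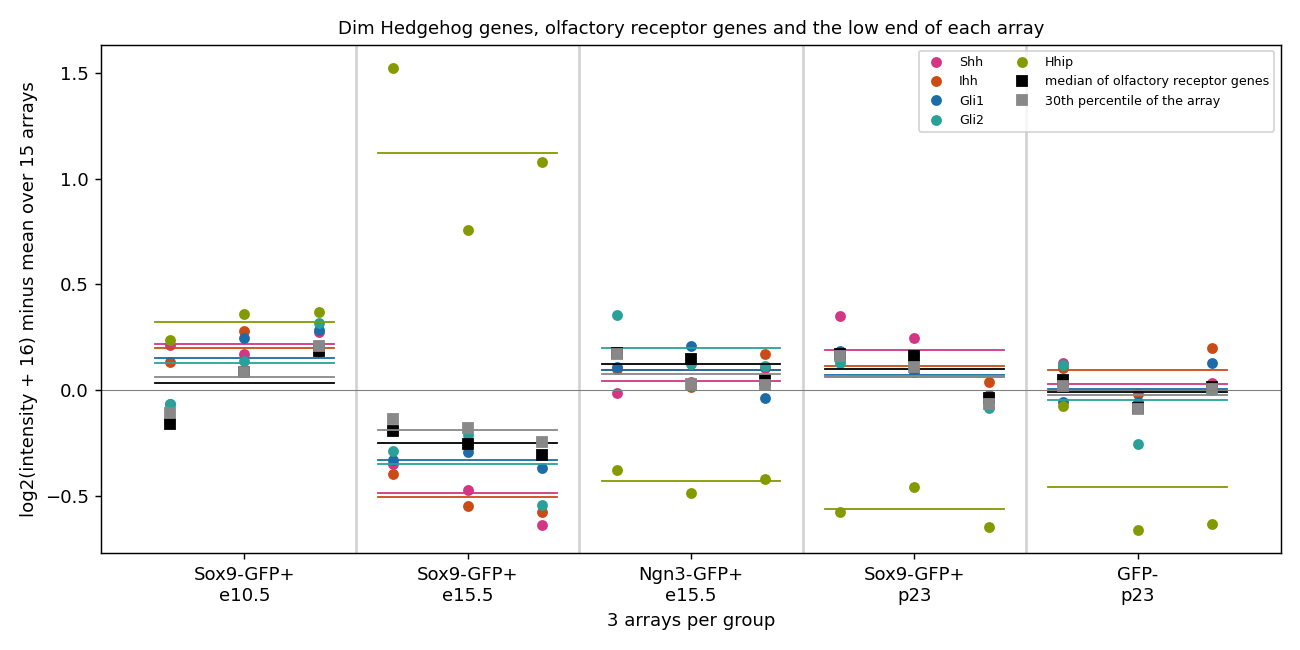
Levels of Shh, Ihh, Gli1, Gli2 and Hhip on each array as the difference from their own mean over the 15 arrays, in log2 units on the vertical axis, beside the median of the olfactory receptor genes and the 30th percentile of each array. Points are arrays and lines group means. In e15.5 Sox9-GFP+ cells the squares and the 4 genes are below 0 while Hhip is above it.

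Sufu (chr19:46396896-46488804), which binds Gli proteins and restrains them, had its highest mean level at e10.5. It read 8.35, 8.25 and 8.05 in e10.5 Sox9-GFP+ cells, and the other groups ranged from 7.66 to 8.05. The e15.5 arrays were 7.94, 7.92 and 7.96, those of Ngn3-GFP+ cells 7.77, 7.91 and 8.05, those of p23 7.80, 7.71 and 7.97 and those of GFP- cells 7.66, 7.85 and 8.03. The last 4 groups overlapped. Sufu was lower at p23 than at e10.5, a change of -0.39 ± 0.13 (adjusted p = 0.0223), which quantile normalization (adjusted p = 0.0636), median centring (adjusted p = 0.0752) and the loss of either of e10.5 replicates 1 and 2 or of p23 replicates 1 and 2 took below a call (adjusted p = 0.0577 to 0.0926). In the other 4 comparisons Sufu was not called.

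Which genes tracked each Hedgehog gene over the 15 arrays is given as a description, with Pearson's r on arrays that share group, pool and labelling. Ptch1 was most like Map3k12 (0.987), Selenon (0.984) and Atat1 (0.984), the last an enzyme that acetylates tubulin. Smo was most like Gtf2i (0.977), Clic6 (0.977) and Rab23 (0.976), a small GTPase of the Hedgehog pathway. The Ptch1 and Smo profiles correlated at 0.89 with each other. Gli3 followed Rimklb (0.961), Reck and Plac1 (0.953 each), Hhip followed Prmt3 (0.921), Psg17 (0.914) and Mki67 (0.911), a marker of dividing cells, and Sufu followed Zbtb9 (0.895), Tpgs2 (0.891) and Snrpg (0.873). Shh was most like Crocc2 (0.944), F12 (0.936) and Cby3 (0.931).
The nearest gene was an olfactory receptor for Ihh (Olfr1340, 0.938), Gli1 (Olfr1349, 0.956) and Gli2 (Olfr1264, 0.957). The next nearest were Dlgap1 (0.937) and Ces1f (0.930) for Ihh, Mir146b (0.949) and Zfp292 (0.947) for Gli1, and Hipk4 (0.956) and Mir540 (0.954) for Gli2. Shh, Ihh, Gli1 and Gli2 correlated with each other at 0.80 to 0.94.

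Further genes of the pathway were counted in lists. Among genes that act on Smo and the Gli proteins in the cilium and cytoplasm, 37 names were listed, some of them for the same gene. Tested were 31 genes, of which 17 were higher and 0 lower in Sox9-GFP+ than in GFP- cells at p23. Their median difference was 0.43 where that of all genes was 0.07, and 21.5% of all genes were higher. Ift88, a carrier of cargo in the cilium, read 10.08, 9.88 and 10.11 in Sox9-GFP+ arrays and 7.74, 8.12 and 8.12 in GFP- arrays, a difference of 2.03 ± 0.12 (adjusted p = 9.78e-09). Evc2, which helps Smo signal at the base of the cilium, was 1.77 ± 0.28 higher (adjusted p = 0.00014). Its GFP- arrays read 6.16, 7.32 and 6.26, of which 1 lay above 6.83, so the difference is mostly against the low end. Dync2h1, the motor of return transport in the cilium, was 1.73 ± 0.22 higher, and Efcab7, an anchor of the Evc2 complex, was 1.62 ± 0.19 higher (adjusted p = 2.44e-05 and 7.65e-06). Rab23, named above for its likeness to Smo, was 1.48 ± 0.16 higher. Kif7, the kinesin that organises the tip of the cilium, was not called (0.15 ± 0.12, adjusted p = 0.396).

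Many of these regulators serve cilia in general and are not particular to Hedgehog signalling. The count was 19 higher and 2 lower under quantile normalization and 15 and 0 after median centring. With replicate 1 as the lone Sox9-GFP+ array, the others having Ptprc above 9, it was 12 higher and 1 lower. Leukocyte markers differed between the sorts as given above, and their part was not tested.

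**Figure D4:**
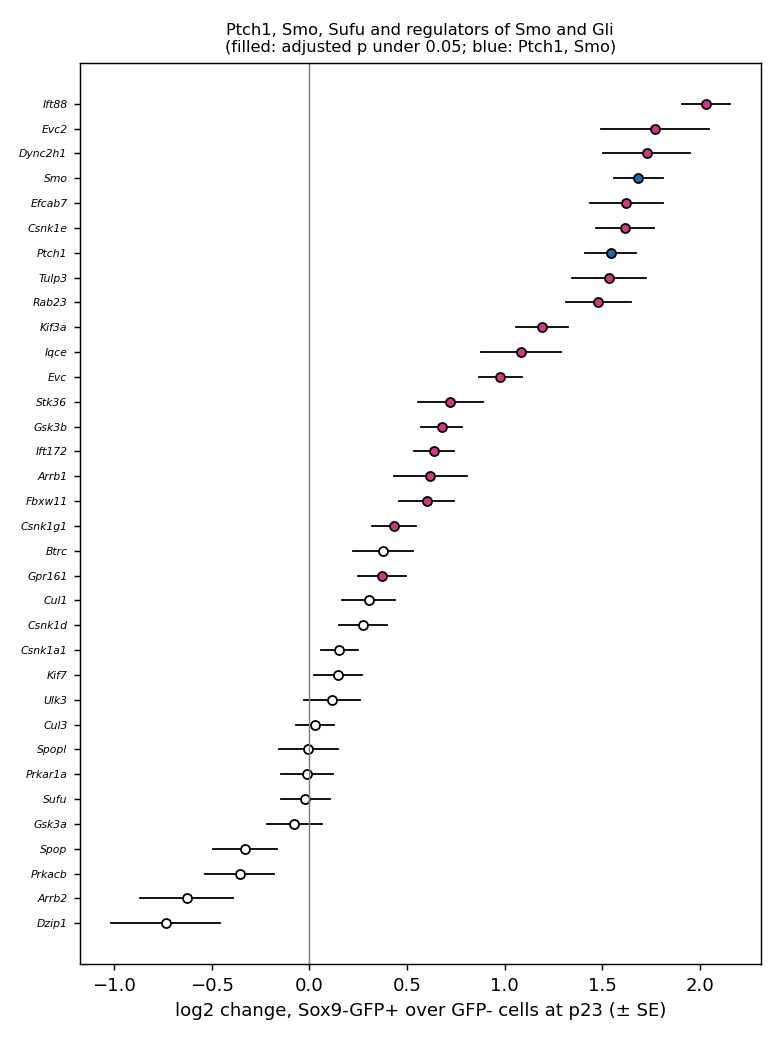
Difference between Sox9-GFP+ and GFP- cells at p23 for Ptch1, Smo, Sufu and the 31 regulators tested, in log2 units on the horizontal axis. Points are limma estimates, bars the standard error, filled points the calls, and blue marks Ptch1 and Smo. No filled point lies below 0, and Ift88 is highest at 2.03.

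In the other comparisons the calls among the regulators were not above the share of all genes in either direction, except for the lower ones from e15.5 to p23 and from e10.5 to p23. From e10.5 to e15.5, 0 were higher and 4 (12.9%) lower, where 12.2% and 16% of all genes were, among them Dzip1, which helps build cilia (-1.25 ± 0.28, adjusted p = 0.00669), Kif7 (-0.55 ± 0.12, adjusted p = 0.0069) and Gpr161, a ciliary receptor that restrains the pathway (-0.42 ± 0.12, adjusted p = 0.0233). From e15.5 to p23, 7 (22.6%) were higher and 10 (32.3%) lower, against 30.7% and 26.8% of all genes. Arrb1, an arrestin that can bind Smo, rose by 1.65 ± 0.19 (adjusted p = 1.06e-05), and Btrc, part of the ligase that marks Gli3 for processing, fell by 0.81 ± 0.15 (adjusted p = 0.000699). From e10.5 to p23 the count was 5 (16.1%) and 8 (25.8%), against 17.7% and 23.3%. In Ngn3-GFP+ against Sox9-GFP+ cells 1 (3.23%) was higher and 4 (12.9%) lower, against 23.3% and 18.4%. Rab23 was among the lower ones, at 9.20, 8.78 and 8.998 against 9.81, 9.80 and 9.71, a change of -0.78 ± 0.16 (adjusted p = 0.00412).

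Genes of ligand release and transport included wide changes between e15.5 and p23. Of 13 listed, 12 were tested. Disp2, a relative of the ligand-releasing protein Disp1, had e15.5 levels of 10.09, 10.56 and 10.20 and p23 levels of 5.68, 6.56 and 5.44 in Sox9-GFP+ cells (adjusted p = 4.15e-09). It lay below 6.83 on all p23 arrays of both sorts and so entered the test through the groups where it is high, and the size of its fall is not resolved. Endocrine markers fell in the same comparison, 7 of 7 tested, with a mean level of 11.36 to 11.97 at e15.5 and of 7.31 to 8.07 at p23, and their part was not tested. Gpc3, a glypican that competes with Ptch1 for ligand, gave e10.5 levels of 12.67, 12.62 and 12.24, e15.5 levels of 11.75, 11.65 and 11.82 and p23 levels of 7.82, 8.34 and 7.96 in Sox9-GFP+ cells. It fell by 3.70 ± 0.22 from e15.5 to p23 (adjusted p = 1.65e-08) and was also lower in Ngn3-GFP+ than in Sox9-GFP+ cells (-1.94 ± 0.22, adjusted p = 0.000116). Scube3, a secreted protein of the family that frees ligand from cells, fell by 1.34 ± 0.19 from e10.5 to e15.5 (adjusted p = 0.000285). In the first 4 comparisons, in the order above, the list held 2 higher and 3 lower genes (16.7% and 25% of those tested), 4 and 5 (33.3% and 41.7%), 2 and 5 (16.7% and 41.7%), and 3 and 3 (25% each). The shares of all genes were 12.2% and 16%, 30.7% and 26.8%, 17.7% and 23.3%, and 23.3% and 18.4%.
Between the p23 sorts 3 of the list (25%) were higher and 1 (8.33%) lower in Sox9-GFP+ cells, where 21.5% and 14.5% of all genes were. Ext1, which builds heparan sulphate, was 1.14 ± 0.14 higher (adjusted p = 1.26e-05), and Hhat, which adds the palmitate to the ligands, was 0.55 ± 0.15 higher (adjusted p = 0.0093). Dhh, the third ligand of mammals, lay between 6.68 and 7.14 on all arrays and between the p23 sorts differed by -0.06 ± 0.09 (adjusted p = 0.661).

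Few co-receptors gave a call. Of 8 genes listed 6 were tested, and the counts of higher and lower genes were 0 and 1, 1 and 1, 1 and 1, 1 and 0, and 0 and 1 in the 5 comparisons in the order above, where 1 gene is 16.7% of the list and the shares of all genes are those given above. Lrp2, megalin, a large endocytic receptor that can bind Shh, read 7.09, 7.12 and 7.15 at e10.5 and lay below 6.83 on all 12 other arrays. It was called lower from e10.5 to e15.5 (-0.73 ± 0.10, adjusted p = 0.000144) and from e10.5 to p23 (-0.60 ± 0.10, adjusted p = 0.000185), both against values at the low end. Boc, which presents ligand to Ptch1, rose by 0.48 ± 0.12 from e10.5 to p23 (adjusted p = 0.00408), 2 of its e10.5 arrays being below 6.83. Gas1, a ligand-binding co-receptor that mesenchyme also carries, was lower in Sox9-GFP+ than in GFP- cells at p23 (-0.51 ± 0.18, adjusted p = 0.0337). Cdon was not called in any of the 5, its changes lying between -0.12 and 0.23.

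Transcripts reported elsewhere to respond to Hedgehog signals gave mixed directions. Of 23 names listed, some of them for the same gene, 19 genes were tested. From e10.5 to e15.5, 1 rose (5.26%) and 5 fell (26.3%), where 12.2% and 16% of all genes did. Between e15.5 and p23, 10 rose (52.6%) and 1 fell (5.26%), where 30.7% and 26.8% of all genes did. The dim end of the arrays moved the same ways. Endothelial markers were higher at p23 than at e15.5 in 8 of 8 tested and leukocyte markers in 7 of 9. Their mean levels per array went from 6.49 to 6.65 up to 7.30 to 7.60 and from 6.62 to 6.72 up to 7.42 to 8.22. Of the list, Spp1 also served here as a ductal marker and Pdgfra as a mesenchymal one. Ductal markers were higher at p23 in 3 of 5 tested and lower in 1, mesenchymal ones higher in 4 of 14 and lower in 0. The part of these cell types in the 10 rises was not tested. Prdm1 had e10.5 levels of 9.45, 9.30 and 9.16 but e15.5 levels of 5.89, 5.85 and 6.20, all below 6.83, so it fell to the low end by an amount that is not resolved (adjusted p = 4.03e-08). Foxf1, a target in gut mesenchyme, fell over the same span (adjusted p = 6.51e-05) to e15.5 levels of 6.89, 6.44 and 6.68, of which 1 lay above 6.83. Igf1, a growth factor of many cell types, rose by 2.54 ± 0.28 (adjusted p = 3.2e-05). From e15.5 to p23 Angpt1, a ligand of endothelial Tek, rose by 3.58 ± 0.53 (adjusted p = 0.000108). The transcription factors Foxc2 and Foxc1 rose from below 6.83 on all e15.5 arrays to mean levels of 9.10 and 8.02 (adjusted p = 1.27e-05 and 0.000183).
Between the e15.5 sorts 4 were higher and 4 lower, with Ccnd1, cyclin D1 of the G1 phase, at 10.24, 8.08 and 9.93 in Ngn3-GFP+ and 11.33, 11.22 and 11.20 in Sox9-GFP+ cells (-1.84 ± 0.39, adjusted p = 0.00433). The background was 23.3% higher and 18.4% lower, against 21.1% of the list each way. At p23 the count was 7 higher (36.8%) and 6 lower (31.6%) in Sox9-GFP+ cells, against 21.5% and 14.5%. Ccnd1 was 2.89 ± 0.39 higher (adjusted p = 3.57e-05), and Prdm1, which lymphocytes also express, was lower, at 6.60, 6.84 and 6.42 against 9.54, 9.39 and 9.20 (adjusted p = 1.73e-08). From e10.5 to p23 the count was 7 (36.8%) and 3 (15.8%), against 17.7% and 23.3%. Most of these genes respond to other signals as well, so the counts describe the list and not the activity of the pathway.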

How the data were processed

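RNA of 15 sorted pools was amplified from 20 ng with a NuGEN Ovation kit and hybridised to Affymetrix mouse gene arrays, per the labels' protocols. The authors deposited linear intensity values per probe set, and the submitters' processing notes name Affymetrix Expression Console 1.1 and the summary method PLIER. Any normalization between arrays at that stage was not given in the sources used here, and none was added in the main analysis. The number of arrays limits the precision, and array medians lay between 165.5 and 211.7.

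Of 35557 probe sets, 21789 named 1 gene in the platform annotation. They covered 19938 genes, and the probe set of highest mean over the 15 arrays stood for a gene. Values were taken as log2(intensity + 16), and 16883 genes above intensity 97.8 in at least 3 arrays were tested. limma 3.58.1 in R 4.3.3 fitted a mean per group over all 15 arrays, without a replicate block, for 5 contrasts. A permutation test of 3 against 3 arrays cannot go below p = 0.1. The fit was tested on simulated data. Promoter sequences and gene positions are RefSeq's, GRCm38.p6.

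The members and all gene lists were chosen with earlier results of these data known. Named were all 9 members, up to 4 called genes of each list per comparison by size of change, others of a list with their values, and the 3 genes most correlated with each member, without clone names. Alternatives were the offset, quantile normalization, median centring, the filter, the mean of all probe sets, the 2 groups alone, a replicate block, each array left out, and the fits without arrays with Hbb-y or Ptprc above 9.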

Additional observations from a re-analysis of the deposited data

How the results depend on the processing

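Of 745 values for the 9 genes under an alternative, 677 kept direction and side of the threshold, 34 lost a call, 12 gained one and 22 changed sign. None of the 22 was called before or after. The Smo change from e10.5 to e15.5 turned to 0.14 under median centring and ranged from -0.10 to 0.046 with single arrays left out. From e10.5 to p23, without the Ptprc arrays, which leaves 1 of p23, Shh was 0.13, Gli1 0.031 and Gli2 8.87e-05, and with single arrays left out Shh ranged from -0.11 to 0.081 and Gli2 from -0.16 to 0.027. Between the p23 sorts Ihh was -0.074 under quantile normalization and -0.065 under median centring, and Gli1 -0.017 and -0.019. With single arrays left out Ihh ranged there from -0.035 to 0.073, Sufu from -0.11 to 0.070, Gli3 from -0.18 to 0.035 and Hhip from -0.21 to 0.086, and Sufu between the e15.5 sorts from -0.10 to 0.039.

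The count of the 9 genes called was 2, 2 and 3 of the 5 left by a filter at the median, from e10.5 to e15.5, e15.5 to p23 and between the e15.5 sorts, since fewer were tested. Without the Hbb-y arrays, which leaves 1 of e10.5 that is assumed to vary like the other groups, it was 2 from e10.5 to p23. Single arrays left out gave 4 to 6 from e10.5 to e15.5, 5 to 7 from e15.5 to p23, 3 to 5 from e10.5 to p23, 4 to 7 between the e15.5 sorts (4 without Sox9-GFP+ replicate 3) and 2 between the p23 sorts.

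Over all genes, 4754 calls from e10.5 to e15.5 became 2724 under quantile normalization, 7149 with the 2 groups alone and 2673 without the Hbb-y arrays, and 1840 to 5952 with single arrays left out (2179 and 1896 without e10.5 replicates 2 and 3, 2168 and 1840 without e15.5 replicates 2 and 3). From e10.5 to p23, 6916 became 3559 without the Hbb-y arrays. Between the e15.5 sorts 7034 became 4070 under quantile normalization, and 3757 to 6839 with single arrays left out (4644 and 3757 without Sox9-GFP+ replicates 2 and 3). The cause was not tested. The share of calls that were higher went from 43.3% to 62.7% under quantile normalization and 73.7% under median centring (e10.5 to e15.5), from 53.4% to 39.4% under centring (e15.5 to p23), and from 55.9% to 42.4% and 28.2% (e15.5 sorts). Centring moved the median change of all genes from -0.05 to 0.11, 0.05 to -0.11 and 0.04 to -0.14 in these 3.

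Replicate numbers were not used as pairs. With the group mean of each gene subtracted, same-numbered arrays of the groups compared correlated at -0.49 to 0.20. Arrays of unlike number were not correlated, so these values cannot tell whether the numbers pair the arrays. A fit with the replicate block changed no call of the 9 genes and gave 3695, 9124, 6505, 6246 and 5737 calls over all genes in the order of the comparisons.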
